A study of Sus scrofa with 27 samples.

Results

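Tumour necrosis factor (TNF), 3 related ligands and 5 receptors of the same superfamily were followed in pig lungs kept on ex vivo lung perfusion (EVLP) for 12h. The 9 genes were TNF, LTB, TNFSF10 and TNFSF13B on the ligand side, and TNFRSF1A, TNFRSF1B, TNFRSF12A, CD40 and FAS on the receptor side. They were looked up by gene name among the 31908 rows of the count table. Of the 9, 6 had a row under their own name and 5 had at least 10 counts in a library, namely TNF, TNFSF13B, TNFRSF1A, TNFRSF1B and CD40. TNFRSF12A had a row with 0 counts in all 27 libraries and was dropped, and LTB had no row of that name. TNFSF10 and FAS had no row of that name either, but 1 row each could be matched by gene identifier, and those 2 rows are given apart from the 5 named members.

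Lungs came from Large-White pigs killed as non-heart-beating donors and went through cold ischemia. They were then perfused with Steen solution that held methylprednisolone, cefuroxime and heparin, in both groups alike. The study's scheme of the circuit with dialysis shows a leukocyte filter. In the Gold Standard (GS) group, 5 pigs (9, 17, 44, 55 and 77), part of the perfusate was replaced at intervals. In the Pediatric Dialysis (PD) group, 4 pigs (2, 3, 4 and 5), the perfusate ran through a hemodialysis membrane instead. Lung tissue was biopsied at 0h, after cold ischemia and before EVLP, and at 6h and 12h, which gave 15 GS and 12 PD libraries of whole tissue mRNA. No group without EVLP was analysed here, and the age of the animals is not given in the sources used here. The labels do not say which of the RNA isolation procedures named in the protocol was applied to which biopsy.

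TNF is released mainly by macrophages and other leukocytes and acts through TNFRSF1A, which is present on most cells and carries a death domain, and TNFRSF1B, which is found mostly on leukocytes and endothelium. Binding recruits adaptors of the TRADD and TRAF families and sets NF-kB free, and NF-kB in turn drives inhibitors of its own pathway such as NFKBIA and TNFAIP3. TNFSF13B (BAFF) is a survival factor for B cells, TNFSF10 (TRAIL) and the FAS receptor belong to death signalling, LTB takes part in lymphoid tissue organisation, and CD40 receives the T cell signal on antigen-presenting cells and endothelium. In the lung, TNF is one of the early cytokines of ischemia and reperfusion.

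Upstream sequence is shown for TNF, whose row rose in both groups, and for CD40, which was called in PD at 12h. The stretches come from the RefSeq annotation of Sscrofa11.1, begin 250 bases before the RefSeq start and stop before the first annotated base of the gene in either RefSeq or the count table. Capitals mark matches to the 4 motifs searched on both strands, which were the NF-kB consensus, the AP-1 motif TGANTCA, the interferon element TTTCNNTTTC and the GAS motif TTCNNNGAA.
TNF, chr7:23699385-23699634, plus strand: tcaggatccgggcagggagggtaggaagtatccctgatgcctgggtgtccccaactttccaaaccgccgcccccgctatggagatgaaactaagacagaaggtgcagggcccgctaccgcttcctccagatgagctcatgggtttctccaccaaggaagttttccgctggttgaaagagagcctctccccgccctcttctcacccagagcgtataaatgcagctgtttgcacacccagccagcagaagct
CD40, chr17:48285866-48286028, plus strand: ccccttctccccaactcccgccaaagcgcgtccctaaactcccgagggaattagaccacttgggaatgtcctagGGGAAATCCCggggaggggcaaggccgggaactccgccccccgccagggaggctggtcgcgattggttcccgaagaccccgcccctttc
The capitals of CD40 are a match to the NF-kB consensus, found at the same bases on either strand, at -176 to -167 from the start. Of 19531 pig promoters, each 300 bases from 250 before to 50 after the RefSeq start, 16.6% held such a match. The interferon element was found in 3.57% of the promoters, the AP-1 motif in 5.81% and GAS in 7.01%. The 300 bases of TNF held none of the 4. Matches in the promoters of the other members are not described here.

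A GS library holds 26335584 to 67522703 counts, with a median of 53623755, and a PD library 14650700 to 21820935, with a median of 19344265, so that no PD library reached the depth of a GS library, and depth or batch and group cannot be told apart. For each library, exon length was rank-correlated with log2 CPM taken relative to the gene's mean over all 27 libraries. This length correlation was positive in all 15 GS libraries and negative in all 12 PD libraries. Its sign is relative to the other libraries and does not give the trend of counts with length within a library. The 12h library of PD pig 2 stood apart, with the lowest total, 18979 genes detected against 20298 to 22291 in the other PD libraries and a length correlation of -0.45. Surfactant and other alveolar type 2 genes summed to 25810 to 76800 CPM (counts scaled to the library size) in PD at 0h. In GS at 0h they summed to 6382 to 8948 CPM, 4 of 5 listed genes being in the table and none at 0. SFTPC reached 85010 CPM in a library, and SFTPA1, SFTPB and ABCA3 at most 7939, 2040 and 412 CPM. The PD sums at 0h are therefore mostly SFTPC, and do not show a difference in the other listed genes. The macrophage list (7 of 7 genes in the table) ran lower in PD than in GS at 0h, 1651 to 1832 against 1860 to 3468 CPM, and so did the endothelial list (7 of 7), 1205 to 1737 against 1977 to 2792 CPM. Marker sums also moved with time within PD. From 0h to 12h, alveolar type 2 sums went from 25810 to 21640 CPM in pig 3, 76800 to 25950 in pig 4 and 44990 to 17060 in pig 5. In pig 2 they rose from 38180 to 87350 CPM. Neutrophil genes (5 of 6 in the table) went from 690, 1246 and 626 to 328, 542 and 253 CPM in pigs 3, 4 and 5, and from 734 to 1521 in pig 2. In bulk tissue, fewer cells of a type and less RNA per cell cannot be told apart, and the part of these markers in the results was not tested.

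TNF (ENSSSCG00000001404, chr7:23699636-23703655, plus strand) was scarce before EVLP and rose in both groups. In GS at 0h the level was 4.17 CPM in pig 9, 2.62 in pig 17, 3.06 in pig 44, 8.90 in pig 55 and 5.42 in pig 77. At 6h the same pigs had 9.52, 3.25, 14.9, 18.3 and 27.9 CPM, and at 12h 2.30, 6.21, 30.2, 42.0 and 49.95 CPM. Pig 9 thus went up at 6h and ended below its start, and pigs 17, 44, 55 and 77 were higher at each later biopsy, pig 17 by the least (2.36-fold at 12h). In PD at 0h the level was 5.57 CPM in pig 2, 4.64 in pig 3, 6.37 in pig 4 and 2.98 in pig 5. At 6h these pigs reached 65.7, 31.2, 41.2 and 48.0 CPM, and at 12h they had 27.4, 21.7, 32.6 and 50.1 CPM. The groups overlapped at 0h and at 12h, whereas at 6h the lowest PD pig lay above the highest GS pig. The share of all genes with levels apart at 6h was not counted. At 0h, 21.3% of all genes were called higher in PD and 19.3% lower. Macrophage genes at 6h summed to 1027 to 2120 CPM in PD and 1999 to 3463 in GS, and neutrophil genes (5 of 6 in the table) to 234 to 1124 and 200 to 270 CPM. The highest neutrophil sum was that of PD pig 2, up from 734 CPM at 0h. PD pigs 3, 4 and 5 had 325, 340 and 234 CPM at 6h, down from 690, 1246 and 626 at 0h. The part of both lists in the TNF level was not tested.

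The fitted change of TNF in GS was a log2 fold change of 1.37 ± 0.46 (SE, 2.59-fold, adjusted p = 0.0398) at 6h and 1.97 ± 0.48 (3.92-fold, adjusted p = 0.00642) at 12h against 0h. In PD it was 3.20 ± 0.42 (9.21-fold, adjusted p = 0.0176) at 6h and 2.71 ± 0.41 (6.54-fold, adjusted p = 0.0149) at 12h. Adjusted p-values here are Benjamini-Hochberg values from edgeR's quasi-likelihood test with the pig as a block, and a gene was called within a group at an adjusted p under 0.05 and at least a 2-fold change. The call in GS at 6h was lost without pig 17 (adjusted p = 0.054), pig 44 (0.131), pig 55 (0.0878) or pig 77 (0.134), and also without the replicate block (0.151), without the low-count filter (0.109) and with all 27 libraries in one fit (0.0533). That in PD at 6h was lost without pig 3 (0.186), pig 4 (0.0991) or pig 5 (0.342), and that in PD at 12h without pig 3 (0.166) or pig 5 (0.246) and with only the times compared (0.11). In each of these 5 PD comparisons that left out a pig, no gene at all was called. Unadjusted p-values under 0.05 numbered 580 to 1029 at 6h and 1878 to 2091 at 12h in them. At 12h the fit without PD pig 4 called 399 genes, TNF among them (adjusted p = 0.0308). Log2 changes over the fits that lost a call ran from 1.16 to 1.64 in GS at 6h, 3.00 to 3.41 in PD at 6h and 2.28 to 2.88 in PD at 12h. Without the 12h library of PD pig 2, TNF was called at both times in PD (adjusted p = 0.00124 and 0.00196).

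GS pigs formed 2 sets by depth, and the changes of several members, TNF at 12h among them, did not overlap between the sets. Pigs 9 and 17 had 26335584 to 41802541 counts per library and log2 changes at 12h of -0.86 and 1.24, and pigs 44, 55 and 77 had 51708598 to 67522703 counts and changes of 2.24 to 3.30. At 6h the TNF ranges were 0.30 to 1.19 and 1.04 to 2.36, which overlap. The sets were also apart for TNFRSF1A at 6h (0.39 to 0.81 against 0.93 to 1.61) and 12h (0.53 to 1.04 against 1.06 to 1.32), for CD40 at 12h (-0.24 to -0.05 against 0.39 to 0.79), and at 6h for TNFRSF1B (-0.05 to 0.55 against 0.67 to 1.61) and the FAS row (0.62 to 0.71 against 0.73 to 1.51). TNFSF13B at 6h was apart the other way, with 0.10 to 0.45 in the first set and -0.52 to 0.01 in the second. The sets overlapped for the TNFSF10 row at 6h and 12h, for CD40 at 6h, and for TNFRSF1B, TNFSF13B and the FAS row at 12h. The share of all genes that are apart in such a split was not counted, so these separations cannot be set against it. Length correlations were 0.31 to 0.38 in the libraries of the first set and 0.03 to 0.27 in the second. The part of depth or length in these differences was not tested, and neither were the differences between the sets, which were formed after the values had been seen.

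**Figure D1:**
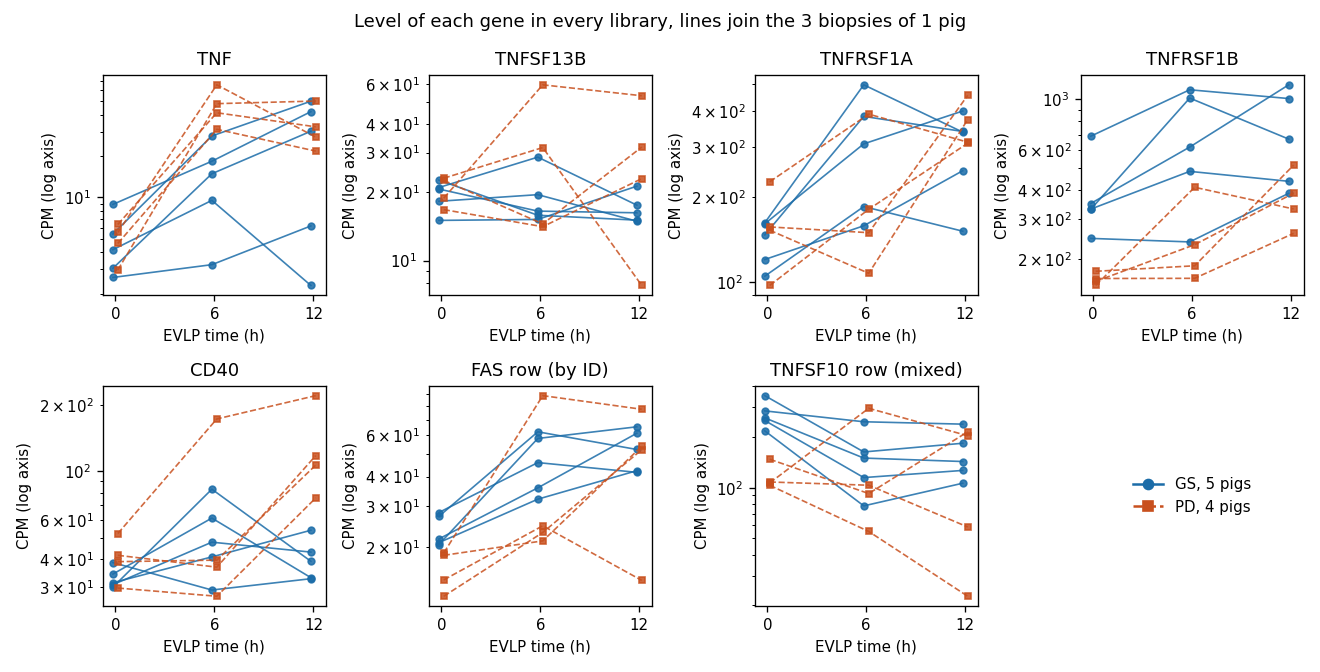
Levels in CPM (vertical, log axis) against EVLP time in hours, 1 panel per gene, with a line through the 3 biopsies of each of 5 GS pigs (circles) and 4 PD pigs (squares). TNF climbs in all 4 PD pigs between 0h and 6h, TNFRSF1B starts at 154 to 177 CPM in PD against 247 to 690 in GS, and CD40 at 12h lies at 75.8 to 220 CPM in PD against 32.6 to 54.1 in GS.

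Among the other ligands, TNFSF13B (ENSSSCG00000009542, chr11:75599598-75633041, plus strand) was not called in any comparison. Its level in GS ranged from 15.1 to 22.7 CPM at 0h, 15.2 to 28.6 at 6h and 14.9 to 21.3 at 12h. In PD the ranges were 16.8 to 23.1, 14.1 to 59.7 and 7.77 to 53.4 CPM, the highest values at 6h and 12h being those of pig 4 and the lowest at 12h that of the library of pig 2 that stood apart. The groups overlapped at all 3 times. The fitted log2 changes at 12h were -0.23 ± 0.18 in GS and 0.32 ± 0.51 in PD (adjusted p = 0.332 and 0.75), and the PD value was 0.74 (adjusted p = 0.159) without the 12h library of pig 2.

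The row that carries the gene number of TNFSF10 (ENSSSCG00000020906, chr13:110981604-111107423, minus strand) is named GHSR in the table and spans both RefSeq loci, so that its counts cannot be split between the death ligand and the ghrelin receptor. In GS it read 286, 352, 218, 251 and 260 CPM at 0h in pigs 9, 17, 44, 55 and 77, then 246, 163, 78.0, 115 and 150 CPM at 6h and 238, 184, 106, 127 and 143 CPM at 12h. Every GS pig was below its own start at both times. The log2 changes were -0.97 ± 0.15 and -0.87 ± 0.15 (adjusted p = 0.000994 and 0.000996), which stop short of a 2-fold fall and were not called. Without pig 9 the 6h value was -1.11 and was called (adjusted p = 0.00045). The p threshold was missed without the block (0.0731 at 6h and 0.0715 at 12h) and with all 27 libraries in one fit (0.0828 and 0.0958). PD pigs 2, 3, 4 and 5 had 103, 148, 107 and 108 CPM at 0h and 22.7, 215, 204 and 58.4 CPM at 12h, with 2 pigs above and 2 below their start. The PD log2 change at 12h, -0.39 ± 0.52, turned to 0.027 without the 12h library of pig 2.

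Both TNF receptors were already abundant at 0h. TNFRSF1A (ENSSSCG00000000708, chr5:64319073-64331909, plus strand), the death-domain receptor, had 105, 120, 147, 161 and 162 CPM at 0h in GS pigs 9, 17, 44, 55 and 77. It had 185, 158, 384, 307 and 495 CPM at 6h and 151, 247, 339, 401 and 338 CPM at 12h. All 5 GS pigs were above their start at both times. In PD pigs 2, 3, 4 and 5 the levels were 153, 97.5, 226 and 157 CPM at 0h, 108, 181, 391 and 150 CPM at 6h, and 373, 309, 311 and 455 CPM at 12h. At 6h, PD pigs 2 and 5 were below their start, and at 12h all 4 were above it.

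TNFRSF1A was called in GS at 6h, with a log2 change of 1.03 ± 0.17 (2.04-fold, adjusted p = 0.00144). At 12h the change was 0.998 ± 0.17 (adjusted p = 0.000908) at a fold of 1.997, just under the threshold, and the call therefore turned on the setting: it was made without pig 9 (log2 change 1.17) or pig 17 (1.003). The 6h call was lost by fold without pig 44 (0.95) or pig 77 (0.88). In PD the change was 0.33 ± 0.38 at 6h (adjusted p = 0.756) and 1.28 ± 0.39 at 12h (2.43-fold, adjusted p = 0.0719). The 12h value was called without PD pig 2 (adjusted p = 0.0401) and without only the 12h library of that pig (log2 change 1.12, adjusted p = 0.0494), and also by DESeq2 (0.00921) and with all 27 libraries in one fit (0.00449).

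TNFRSF1B (ENSSSCG00000022208, chr6:72195435-72231149, plus strand), the receptor of leukocytes and endothelium, had the largest count of the named members, 550290 over all libraries. GS pigs 9, 17, 44, 55 and 77 had 331, 247, 690, 350 and 331 CPM at 0h, 484, 238, 1100, 618 and 1012 CPM at 6h, and 438, 388, 1007, 1156 and 670 CPM at 12h. PD pigs 2, 3, 4 and 5 had 160, 165, 154 and 177 CPM at 0h, 232, 165, 413 and 187 CPM at 6h, and 389, 260, 332 and 516 CPM at 12h. The 4 PD pigs lay close together at 0h, below every GS pig, and at 12h the groups overlapped.

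Within GS the log2 change of TNFRSF1B was 0.71 ± 0.22 at 6h and 0.84 ± 0.22 at 12h (1.64- and 1.79-fold, adjusted p = 0.0299 and 0.0105), which is past the p threshold and under 2-fold. The p threshold was missed without the replicate block (0.22 at 6h and 0.143 at 12h), at 6h also without pig 44 (0.083) or pig 77 (0.135) and with all 27 libraries in one fit (0.0983), and at 12h without pig 55 (0.0586). Within PD it was 0.54 ± 0.35 at 6h (adjusted p = 0.633) and 1.16 ± 0.35 at 12h (2.23-fold, adjusted p = 0.0733). Without the 12h library of PD pig 2 the 12h change was 1.10 and was called (adjusted p = 0.0382), and it was called as well without the replicate block (1.19, adjusted p = 0.0416), by DESeq2 (0.0101) and with all 27 libraries in one fit (0.0104).

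CD40 (ENSSSCG00000035078, chr17:48286029-48298528, plus strand) was called in PD at 12h and not in GS. GS pigs 9, 17, 44, 55 and 77 had 34.3, 38.6, 30.7, 31.3 and 29.9 CPM at 0h, 61.4, 29.0, 47.8, 41.0 and 82.95 CPM at 6h, and 33, 32.6, 43.1, 54.1 and 39.1 CPM at 12h. PD pigs 2, 3, 4 and 5 had 29.6, 39.0, 52.3 and 41.7 CPM at 0h, 27.2, 39.6, 173 and 36.8 CPM at 6h, and 75.8, 107, 220 and 118 CPM at 12h. At 6h only pig 4 had left its starting level in PD, and at 12h each PD pig was above each GS pig. The share of all genes with levels apart at 12h was not counted.

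The log2 change of CD40 in PD was 0.38 ± 0.36 at 6h (adjusted p = 0.715) and 1.56 ± 0.36 at 12h (2.94-fold, adjusted p = 0.033), and in GS it was 0.59 ± 0.23 at 6h and 0.24 ± 0.23 at 12h (adjusted p = 0.0664 and 0.42). The PD call at 12h was lost without pig 3 (adjusted p = 0.223), pig 4 (0.0603) or pig 5 (0.282) and without the replicate block (0.0651) or with only the times compared (0.111), with log2 changes of 1.46 to 1.66 throughout. At 12h the fits without pig 3 or 5 called no gene, and that without pig 4 called 399. It held without the 12h library of pig 2 (adjusted p = 0.0121). Sums over B cell genes (6 of 6 in the table) at 12h were 29.5 to 52.7 CPM in PD and 32.5 to 139 in GS (medians 38.2 and 81.2). Over endothelial genes they were 1463 to 2132 and 1980 to 3385 CPM (medians 1998 and 2545). Genes of all leukocytes (4 of 4) went the other way, with 1297 to 2117 CPM in PD and 841.5 to 1435 in GS (medians 1512 and 1129). In PD pigs 2, 3, 4 and 5 the leukocyte sum was 1214, 1762, 1142 and 1232 CPM at 0h. At 6h it was 1738, 1078, 1556 and 989 CPM, and at 12h 1703, 1321, 2117 and 1297 CPM. Pig 4 had the highest CD40 level, and in pig 3 the leukocyte sum fell from 0h to 12h while CD40 rose. The ranges of all 3 lists overlap between groups, and their part in the CD40 level was not tested.

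The FAS row (ENSSSCG00000010448, chr14:100927089-100956716, plus strand), which has no name in the table and was matched by its Ensembl identifier, counts the death receptor of the FAS ligand. GS pigs 9, 17, 44, 55 and 77 went from 28.04, 20.8, 20.4, 21.6 and 26.98 CPM at 0h to 41.7, 42.4, 65.4, 61.3 and 52.3 CPM at 12h. Every GS pig at 12h was above every GS pig at 0h. PD pigs 2, 3, 4 and 5 went from 14.4, 18.4, 18.8 and 12.3 CPM to 14.4, 53.9, 77.7 and 52.1 CPM. The first of these was the library that stood apart, and the other 3 pigs were well above their start. The row was called in GS at 12h (log2 change 1.12 ± 0.17, adjusted p = 0.000469) and lost the 2-fold mark without pig 44 (0.997). In PD the change at 12h was 1.46 ± 0.45 (adjusted p = 0.0764), and 1.81 (adjusted p = 0.00694, called) without the 12h library of pig 2. It was called as well without pig 2 (0.0155), by DESeq2 (0.0093) and with all 27 libraries in one fit (0.00524).

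**Figure D2:**
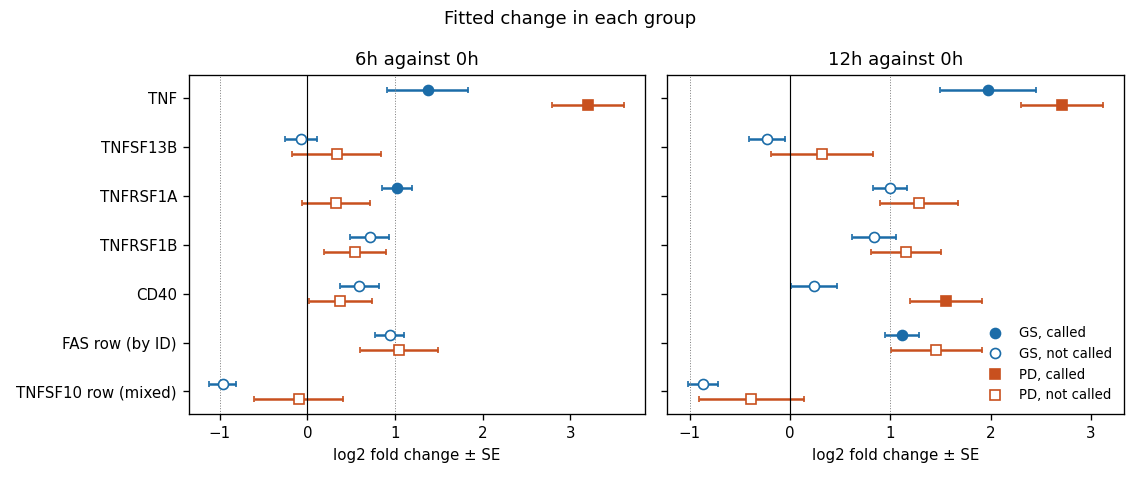
Fitted log2 fold changes with their SE (horizontal) at 6h and 12h against 0h for 7 rows, with GS as circles and PD as squares; filled symbols were called, and dotted lines mark a 2-fold change. TNF is called in both groups at both times, TNFRSF1A sits at the 2-fold line in GS, and CD40 is called in PD at 12h alone.

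Read against all genes, 2 of the 5 named members were called up in GS at 6h (TNF and TNFRSF1A), where 5.50% of 18594 genes were called up and 5.56% down. At 12h in GS the count was 1 of 5 (TNF), with 6.99% of genes called up and 8.66% down. In PD at 6h it was 1 of 5 (TNF), against 0.135% of 15545 genes called up, and at 12h 2 of 5 (TNF and CD40), against 3.22% up and 2.76% down. No member was called down in either group. Without the 12h library of PD pig 2 the PD count at 12h became 4 of 5, all but TNFSF13B, while calls over all genes also went from 930 to 4161.

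Between 6h and 12h no member was called in GS or PD, and neither was any other gene (0% of 18594 and 0% of 15545). Unadjusted p-values under 0.05 numbered 882 in GS and 1562 in PD, and DESeq2 called 1 and 231 genes. With all 27 libraries in one fit 0 genes were called in GS and 414 in PD, CD40 among them (adjusted p = 0.0482). CD40 had the lowest unadjusted p of the members in PD, with a log2 change of 1.179 ± 0.36 from 6h to 12h (2.27-fold, adjusted p = 0.392), followed by TNFRSF1A with 0.96 ± 0.39 (adjusted p = 0.461). TNF went the other way in PD, by -0.49 ± 0.38 (adjusted p = 0.716), and in GS by 0.60 ± 0.45 (adjusted p = 0.9995).

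Whether dialysis altered the course of each gene was asked by the difference between the PD and GS changes, fitted as an interaction over all 27 libraries. None of the members was called at 6h or 12h, and 0% of 17884 genes were at either time, with 1046 and 1069 unadjusted p-values under 0.05 and 7 and 15 genes called by DESeq2. Without PD pig 2, 254 and 153 genes were called at 6h and 12h, no member among them, and unadjusted p-values under 0.05 numbered 3174 and 4801. Without only the 12h library of that pig no gene was called, with 2213 and 4259 such p-values. The TNF change at 6h was larger in PD by 1.84 ± 0.64 on the log2 scale (adjusted p = 0.783), and at 12h by 0.74 ± 0.65 (adjusted p = 0.925). For CD40 the difference was -0.24 ± 0.42 at 6h and 1.28 ± 0.42 at 12h (adjusted p = 0.909 and 0.677), and the 12h value was 1.36 (adjusted p = 0.0784) without PD pig 2 and 1.28 (0.108) without the 12h library alone. TNFRSF1A differed by -0.71 ± 0.39 at 6h and 0.25 ± 0.39 at 12h, and TNFRSF1B by -0.19 ± 0.41 and 0.28 ± 0.40 (adjusted p of at least 0.783 for all 4).

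The pigs of the groups did not overlap in the rlog change of TNF at 6h, nor in that of CD40 at 12h, 1 of 5 members each time. Over all genes 3.17% were without overlap at 6h and 2.23% at 12h. An exact two-sided Wilcoxon test of 4 against 5 pigs cannot go below p = 0.0159, which both genes reached, and no gene passed after adjustment (adjusted p = 0.501 for TNF and 0.711 for CD40).

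Before EVLP, 1 of 5 members differed between the groups. TNFRSF1B was lower in PD by 1.21 ± 0.28 on the log2 scale (0.434-fold, adjusted p = 0.00502), and the difference ran from -1.35 to -0.92 with each pig left out in turn, with an adjusted p of at most 0.0155. This comparison used an adjusted p under 0.05 with no fold threshold, and 19.3% of 16477 genes were called lower and 21.3% higher in PD. The TNFSF10 row was lower as well, by 1.19 ± 0.21 (0.439-fold, adjusted p = 0.000907), and missed the threshold with all 27 libraries in one fit without the block (0.0535). TNF, TNFSF13B, TNFRSF1A, CD40 and the FAS row were not called, with differences of 0.06 ± 0.39, 0.10 ± 0.20, 0.23 ± 0.25, 0.35 ± 0.20 and -0.52 ± 0.21. The FAS row was called lower in PD by DESeq2 (adjusted p = 0.0464) and without PD pig 4 (0.0367).

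Difference and exon length went together at 0h. Over genes with 3000 to 4000 exon bases, the class of TNFRSF1B (3777 bases), TNFSF10 (3695) and TNFSF13B (3077), the last not called at 0h, the median log2 difference was -0.01 (quartiles -0.62 and 0.51) and 18.8% were called lower in PD. Over genes of 1000 to 2000 bases, which holds TNF (1666) and CD40 (1267), the median was 0.64 and 6.19% were called lower. The macrophage and endothelial sums were lower in PD at 0h, as given above. Sums over neutrophil genes (5 of 6 in the table) were higher in PD, 626 to 1246 against 150 to 395 CPM. So were sums over NK cell genes (5 of 6), 165 to 328 against 87.6 to 158 CPM. Single genes weigh heavily in both sums. KLRK1 reached 226 CPM in a library, and the next NK cell gene, NKG7, 68.6 CPM. S100A12 reached 1121 CPM, and the next neutrophil gene, S100A8, 368 CPM. Whether the other genes of these lists were higher in PD is not given here. Genes of all leukocytes (4 of 4) summed to 1142 to 1762 in PD and 864 to 1430 CPM in GS, which overlap, and the part of length or cell content in the TNFRSF1B difference was not tested.

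Per exon length, the receptors for TNF stood above their ligand at every time. At 0h the levels in GS were 103 ± 45.6 CPM per kb (SD, n = 5) for TNFRSF1B, 68.6 ± 12.5 for TNFRSF1A, 26 ± 2.82 for CD40, 6.35 ± 0.96 for TNFSF13B and 2.90 ± 1.51 for TNF. In PD (n = 4) they were 43.4 ± 2.63 for TNFRSF1B, 78.0 ± 25.95 for TNFRSF1A, 32.1 ± 7.36 for CD40, 6.61 ± 0.98 for TNFSF13B and 2.93 ± 0.88 for TNF. The order of the TNF receptors was thus opposite in the group means, although the SD of TNFRSF1A in PD and that of TNFRSF1B in GS were wide. At 12h TNF had reached a mean of 15.7 ± 12.7 CPM per kb in GS and 19.8 ± 7.36 in PD. TNFSF13B had means of 5.54 ± 0.85 and 9.42 ± 6.20, and the ranges of TNF and TNFSF13B overlapped in both groups. CD40 at 12h stood at 31.9 ± 6.95 in GS and 103 ± 49.3 in PD, where it was level with TNFRSF1B at 99.0 ± 28.7. Neighbours in this order whose ranges overlap cannot be ranked.

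**Figure D3:**
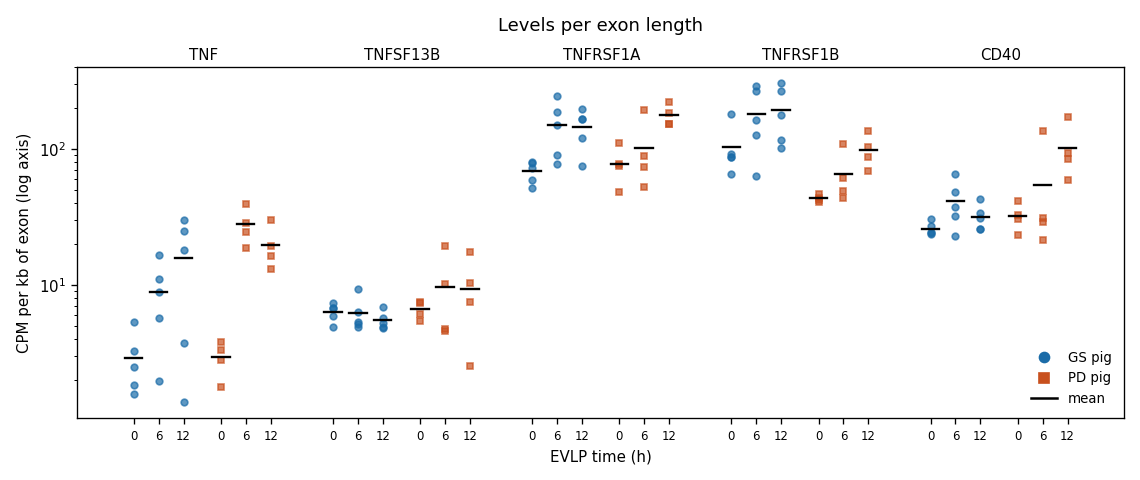
Levels per exon length (CPM per kb, log axis) at 0h, 6h and 12h for the 5 named members, with 1 point per pig, circles for GS and squares for PD, and a bar at the mean. TNF starts at a mean of 2.90 in GS and 2.93 in PD, and the receptors TNFRSF1A and TNFRSF1B lie above it at all times.

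TNFRSF12A, the receptor of the ligand TWEAK, could not be read. Its row (ENSSSCG00000027130, chr3:39166294-39168303, minus strand) overlaps, in all but 1 base, the row of THOC6 (ENSSSCG00000023315, chr3:39161434-39168302, minus strand), and HCFC1R1 within the same span also had 0 counts in all libraries. A 0 here is therefore no measurement of the gene. THOC6 was looked at for this reason, after its values had been seen. It averaged 21.3 ± 2.34 CPM (SD, n = 5) at 0h, 210 ± 151 at 6h and 228 ± 163 at 12h in GS. In PD it averaged 23.7 ± 5.10 (n = 4), 101.1 ± 12.5 and 218 ± 212 CPM. The row was called in GS at both times (log2 changes 2.67 ± 0.53 and 2.78 ± 0.54, adjusted p = 0.00363 and 0.00206) and in PD at 12h (2.77 ± 0.58, adjusted p = 0.0271), and reads of TNFRSF12A and THOC6 in it cannot be told apart.

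Levels centred on each pig were correlated across the 27 libraries, which share depth, processing and the 3 biopsy times, as a description. TNFRSF1A and TNFRSF1B went together (Pearson r = 0.87), as did TNFRSF1B and CD40 (0.85) and TNFRSF1A and CD40 (0.80). TNF followed the FAS row at 0.79, TNFRSF1B at 0.68 and TNFRSF1A at 0.59, and TNFSF13B at 0.14. The TNFSF10 row ran against TNFRSF1A (-0.53) and with TNFSF13B (0.60). These values include the 12h library of PD pig 2, where TNFSF13B (7.77 CPM) and the TNFSF10 row (22.7 CPM) were at their lowest. No correlation was computed without that library.

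The genes most like each member were taken from 12830 genes by the same measure. For TNF they included PRDM1 (0.96), a transcriptional repressor of lymphoid and myeloid cells, and TNFAIP3 (0.95), an inhibitor of NF-kB signalling. PRDM1 had log2 changes of 1.14 ± 0.39 and 1.38 ± 0.40 in GS and of 2.77 ± 0.38 and 2.29 ± 0.37 in PD at 6h and 12h. As it was picked for its likeness to TNF in these same libraries, changes like those of TNF follow from the choice. For CD40 the nearest genes were IL2RA (0.93), the alpha chain of the interleukin-2 receptor, MRM3 and PACC1 (both 0.91). TNFRSF1A was closest to QTRT1 (0.97), LTBR (0.97), the lymphotoxin beta receptor, and TEAD3 (0.96). TNFRSF1B was closest to the cytokine receptor genes IL4R (0.95) and IL15RA (0.95) and to PEA15 (0.94). TNFSF13B was nearest to DNAJC13 (0.93), LRCH2 (0.92) and RMI1 (0.91).

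The rest of the pathway was counted in 4 lists. Of 13 genes known to be induced by TNF, 6 rose in GS at 6h and 7 at 12h, and in PD 1 rose at 6h and 8 at 12h, none falling. Over all genes 5.50% and 6.99% were called up in GS and 0.135% and 3.22% in PD. Their median log2 change at 12h was 1.181 in GS and 1.91 in PD, beside -0.08 and -0.05 over all genes tested. NFKBIA, which holds NF-kB in the cytoplasm, rose by 2.01 ± 0.30 in GS (adjusted p = 0.0004), and TNFAIP3 by 1.97 ± 0.46 in GS (0.00564) and 3.04 ± 0.48 in PD (0.0161). SELE, the endothelial adhesion molecule E-selectin, rose by 4.68 ± 1.20 in PD (adjusted p = 0.0441), from 9.81 ± 9.04 to 230 ± 138 CPM (SD, n = 4). Without the 12h library of PD pig 2, 5 of the 13 were called up at 6h and 10 at 12h, where calls over all genes went from 22 to 252 and from 930 to 4161.

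Of 24 adaptors and death or survival genes tested, 1 was called up in GS at 6h and at 12h, and 2 in PD at 12h, with none down. The counts in GS are no more than the 5.50% and 6.99% of all genes called up, and the share over all genes in PD was 3.22%. Their median log2 change at 12h was 0.23 in GS and 0.44 in PD. CFLAR, which blocks caspase-8 at death receptors, rose by 1.29 ± 0.22 in GS (2.44-fold, adjusted p = 0.000917) and 2.08 ± 0.50 in PD (4.22-fold, adjusted p = 0.0378), and TRAF3 by 1.33 ± 0.35 in PD (adjusted p = 0.0486). Without the 12h library of PD pig 2, 6 were called up and TAB1 down in PD at 12h, with 1885 of all 15875 genes called up and 2276 down in that fit. At 0h, where 21.3% of all genes were higher and 19.3% lower in PD, 3 of the 24 were higher in PD, CFLAR among them by 1.58 ± 0.26 (adjusted p = 0.000576), and 6 were lower, including ADAM17, the protease that sheds TNF, by 1.61 ± 0.30 (adjusted p = 0.0014).

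Of 14 other ligands, all tested in GS, 2 were called up at 6h (TNFSF11 and TNFSF18), and 1 up (TNFSF18) and 3 down (TNFSF15, TNFSF4 and FASLG) at 12h, where 5.50% of all genes were called up at 6h and 6.99% up and 8.66% down at 12h. In PD none of 13 was called at either time, and without the 12h library of pig 2 TNFSF9 was called up at 6h, and TNFSF18 up and TNFSF12 down at 12h, in fits that called 252 and 4161 genes. TNFSF18, the ligand of the GITR receptor, rose in GS at 12h by 3.46 ± 0.61 (11.04-fold, adjusted p = 0.00114), from 1.66 ± 0.79 to 20.0 ± 15.5 CPM (SD, n = 5). TNFSF15, an endothelial ligand, fell in GS by 1.36 ± 0.24 (adjusted p = 0.00122). Medians at 12h were -0.23 in GS and -0.15 in PD. T cell genes (6 of 6 in the table) had median sums of 273 CPM at 0h, 180 at 6h and 181 at 12h in GS. In PD the medians were 233, 144 and 133 CPM, and the part of T cell content in the ligand changes was not tested.

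Of 15 other receptors tested, 1 rose (TNFRSF18) and 1 fell (TNFRSF11A) in GS at 6h, 2 fell in GS at 12h and 1 fell in PD at 12h. Over all genes 5.50% were called up and 5.56% down in GS at 6h, and 8.66% down in GS and 2.76% down in PD at 12h, so that the single calls at 6h are near these shares. TNFRSF11A (RANK) fell by 1.34 ± 0.26 in GS and by 2.38 ± 0.54 in PD at 12h (adjusted p = 0.00204 and 0.0318), and NGFR, the p75 neurotrophin receptor, by 1.62 ± 0.30 in GS (adjusted p = 0.00153) at levels of 0.92 ± 0.43 CPM at 0h. Medians at 12h were -0.33 in GS and -0.20 in PD. Without the 12h library of PD pig 2, TNFRSF11A and TNFRSF13C were called down at 12h, beside 2276 of 15875 genes. B cell genes (6 of 6 in the table) summed to 117, 97.5 and 108 CPM at 0h in PD pigs 3, 4 and 5. At 12h the same pigs had 30.4, 29.5 and 52.7 CPM, and the part of B cell content in these falls was not tested.

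**Figure D4:**
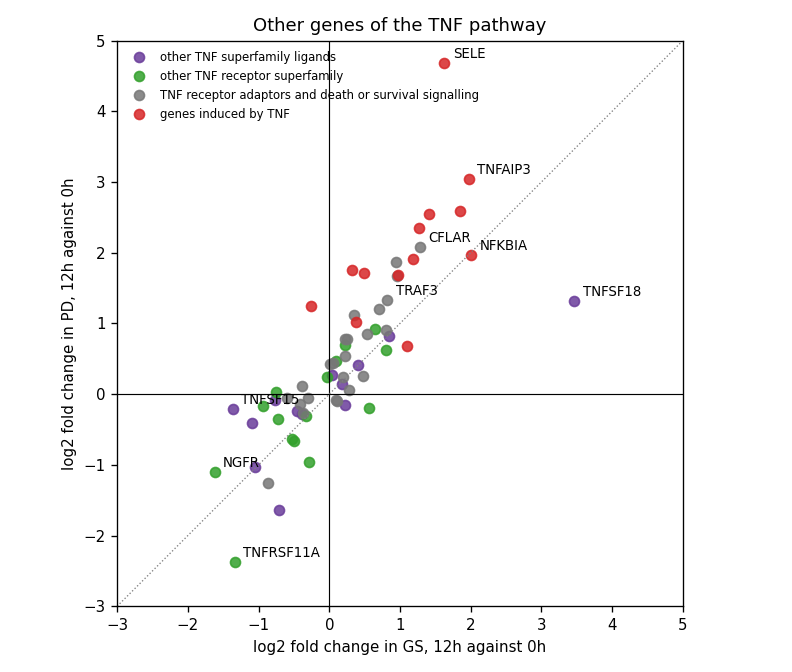
Log2 fold change at 12h against 0h in GS (horizontal) and PD (vertical) for the genes of the 4 lists tested in both groups, with the genes of the naming rule labelled and a dotted line where both changes are equal. Genes induced by TNF lie mostly to the upper right, with SELE at 4.68 in PD and 1.63 in GS, and TNFSF18 lies below the line.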

How the data were processed

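Values start from raw counts per gene deposited by the authors for 27 stranded mRNA libraries of pig lung, in 31908 rows annotated on Sscrofa11.1. Per the labels and the study's methods, reads were trimmed with cutadapt 1.15 and aligned with TopHat2 2.0.14, and the processing notes also name bcl2fastq 2.2.18.12, featureCounts of Subread 1.6.0 and DESeq2 1.18.1. The strand setting of the counting is not given in the sources used here, so reads of overlapping genes may be shared. Blank or total rows were absent. No 2 libraries agreed within counting noise (smallest chi-square per degree of freedom 36.4).

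Groups, pigs and times were read from sample titles. The 9 members and all lists were chosen with earlier results of these data known. CPM are counts scaled to the TMM-adjusted library size, and log2 CPM used a prior count of 0.5. The floor of 3 counts equals no more than 0.104 CPM in a GS library and 0.324 in a PD library. Each group was fitted across all genes with edgeR 4.0.16 (R 4.3.3, limma 3.58.1), after filterByExpr, by robust quasi-likelihood F tests with pig and time, two-sided and Benjamini-Hochberg adjusted, and called at an adjusted p under 0.05 with at least a 2-fold change. The PD minus GS change was an interaction over 27 libraries, and 0h was compared between 9 pigs, both without the fold threshold. All SE are from these fits. The pig gives 3 libraries from the same animal, so it was used as a replicate block. Residuals of libraries from the same pig correlated at 0.513 on average in GS (0.344 to 0.73) and 0.112 in PD (-0.265 to 0.462). The fits were tested on simulated data.

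Genes named from the lists were the 2 called genes with the largest change per group at 12h, and likeness used genes with a mean of at least 50 counts, up to 3 being named per member; a gene of this kind and an upstream sequence are not reported here. Others named beside a small count, and THOC6, were chosen after their values were seen. Alternatives were leaving out the replicate block, fitting just the pair of times in question, a joint fit of all 27 libraries, DESeq2 1.42.0, its size factors, dropping the low-count filter, dropping the fold threshold, thinning to the smallest total, the exact Wilcoxon test on rlog values and each pig left out in turn. Leaving out the 12h library of PD pig 2 and the split of GS pigs by depth were added after seeing the data. Perfusate and protein data were not used here.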

Additional observations from a re-analysis of the deposited data

Results flagged for a closer look

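Of 70 sets of values, formed by 7 rows in each group at each time and as log2 changes against 0h, 5 had 1 pig far from the others by Dixon's test, where chance alone flags about 1 in 20. Explanations were not tested. The TNF log2 change at 12h in PD was 4.06 in pig 5, against 2.22 to 2.35 in the other 3 pigs. The CD40 log2 change at 6h in PD was 1.72 in pig 4, against -0.18 to 0.02 in the others. PD pig 4 was also far above the rest for the FAS row at 6h, with 6.47 log2 CPM against 4.41 to 4.62. For the TNFSF10 row, the log2 change at 12h in GS was -0.26 in pig 9, against -1.03 to -0.86 in the others, and the level at 0h in PD was 7.20 log2 CPM in pig 3, against 6.69 to 6.76.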

How the results depend on the processing

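Of the alternative values for 42 log2 results, 486 kept direction and call, 29 gained a call, 22 lost one and 13 changed direction, none of the last with an adjusted p under 0.05. Of those for 9 counts of members called, 91 stayed within 1.5 times and 27 did not. Causes were not tested. Counts below are members called of 5. In GS at 6h the 2 called became 1 without the replicate block, without the low-count filter and with all 27 libraries in one fit, and 3 without the fold threshold, TNFRSF1B being added. In GS at 12h the 1 called became 2 without the block, with only the times compared, by DESeq2, with its size factors, without the filter and with all libraries in one fit, and 3 without the fold threshold, TNFRSF1A being added in each and TNFRSF1B also in the last. In PD at 12h the 2 called became 0 with only the times compared, and 4 by DESeq2, with all libraries in one fit and without the 12h library of pig 2; calls over all genes went from 930 to 4 with only the times compared and to 3300 with all libraries in one fit. All libraries in one fit also called 1 member (CD40) between 6h and 12h in PD, with 414 of 17884 genes. With 1 pig left out, counts ran from 0 to 2 in GS at 6h, 1 to 2 in GS at 12h, 0 to 1 in PD at 6h and 0 to 3 in PD at 12h, 3 being the count without pig 2, where 3826 of 15703 genes were called.

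Log2 values that changed direction are these. Without the block, the TNFSF10 row in PD at 12h was 0.089 and the CD40 difference between groups at 6h 0.094, and without the filter TNF at 0h was -0.017. With 1 pig or the 12h library of PD pig 2 left out, ranges were -0.067 to 0.55 for CD40 in PD at 6h, -0.82 to 0.18 for the TNFSF10 row in PD at 12h, -0.54 to 0.044 for the TNFRSF1B difference at 6h, and at 0h -0.11 to 0.37 for TNF and -0.011 to 0.19 for TNFSF13B. TNF had 56 to 111 counts in a PD library at 0h, and thinning all libraries to the smallest total changed no count of members called in the comparisons between groups, where it was run. Calls over all genes also moved with DESeq2, from 22 to 428 in PD at 6h and from 930 to 2560 at 12h, and without the 12h library of PD pig 2 to 252 and 4161. They fell to 0 without PD pig 3 or 5 at both times and without pig 4 at 6h.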
